A study of Mus musculus with 9 samples.

Results

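The 9 genes described here, Adgre1, Fgl2, Cd68, Lyz2, Csf1r, Csf2rb, Cebpb, Cebpd and Spi1, are associated with macrophages and other myeloid cells, and their RNA was followed in sorted splenic B cells. They are 9 of 24346 listed genes, picked by symbol for their association with the myeloid lineage, and all 9 had a value in each of the 9 libraries. The genes were chosen by this association and with their FPKM levels in age-associated B cells (ABCs) against follicular (FO) B cells in view, so the levels in ABCs are a description, without a test. Wild-type C57BL6 mice were used, and no treatment or transgene is given for these libraries. There were 3 libraries of FO B cells from mice of 8 weeks, FO B (Young), 3 of FO B cells from mice of 50 weeks, FO B (Aged), and 3 of ABCs from mice of 50 weeks, ABCs (Aged). The gates included B220hi CD43- CD23+ CD21lo for FO B cells and B220hi CD43- CD23- CD21lo CD11b+ CD11c+ for ABCs. ABCs of young mice were not analysed here, so the effect of age can be read only in FO B cells, and that of cell type only in aged mice. The gate for ABCs itself uses CD11b and CD11c, integrin chains that myeloid cells also carry.

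Macrophages, monocytes and granulocytes arise from progenitors in which the transcription factor PU.1 (Spi1) and members of the C/EBP family switch on myeloid genes. B cells also need PU.1, at a lower dose, while growth factor receptors such as the CSF-1 receptor keep macrophages alive and are usually absent from the B lineage. ABCs are a B cell subset that accumulates with age and in autoimmunity and is known for surface molecules shared with myeloid cells.

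Promoter sequence was on hand for 4 of the 9 genes (Fgl2, Cd68, Lyz2 and Cebpb) and was not used for Adgre1, Csf1r, Csf2rb, Cebpd and Spi1. The 250 bases before the RefSeq start (build GRCm38.p6) are shown 5′ to 3′ on the strand of the gene for Fgl2 and Cebpb, the genes whose aged and young FO B cells did not overlap, and for Cd68, which held both motifs searched. They lie at chr5:21372423-21372672 (plus strand), chr2:167688665-167688914 (plus strand) and chr11:69666171-69666420 (minus strand). Capitals mark matches to GAGGAA, a core that PU.1 binds, or to TTGCNNAA, a form of the C/EBP site.
Fgl2: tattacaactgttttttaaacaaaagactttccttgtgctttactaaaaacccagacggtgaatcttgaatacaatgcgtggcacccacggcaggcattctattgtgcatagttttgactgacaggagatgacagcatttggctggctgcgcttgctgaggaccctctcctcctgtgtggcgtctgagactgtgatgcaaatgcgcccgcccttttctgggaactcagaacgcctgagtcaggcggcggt
Cebpb: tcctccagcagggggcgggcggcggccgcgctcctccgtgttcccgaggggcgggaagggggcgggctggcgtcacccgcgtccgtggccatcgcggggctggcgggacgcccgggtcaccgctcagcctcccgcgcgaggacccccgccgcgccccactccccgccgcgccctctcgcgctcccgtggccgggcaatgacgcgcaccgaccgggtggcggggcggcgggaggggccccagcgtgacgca
Cd68: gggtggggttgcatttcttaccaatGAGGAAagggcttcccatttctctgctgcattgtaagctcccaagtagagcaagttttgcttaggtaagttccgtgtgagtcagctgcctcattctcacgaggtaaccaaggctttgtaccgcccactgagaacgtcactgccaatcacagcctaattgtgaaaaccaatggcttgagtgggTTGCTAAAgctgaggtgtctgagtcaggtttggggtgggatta
Both strands were searched. Of 32851 promoters of the same length, 23.3% held GAGGAA and 9.56% held TTGCNNAA. The Cd68 promoter held GAGGAA 225 bases and TTGCTAAA 43 bases before the start, and neither set of letters was found in these windows of Fgl2, Lyz2 and Cebpb. A match of letters is no measurement of binding.

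The libraries held about 7220000 to 8780000 mapped reads, as worked out from the step that a single read makes in low values. Levels are in FPKM, read numbers scaled by exon length and by library depth, and 10032 to 10445 genes reached 1 FPKM. B lineage markers were abundant in each library, with mean Cd79a levels of 3092 FPKM (ABCs) and 3168 FPKM (FO B (Aged)). The genes for the sorted markers CD23 (Fcer2a) and CD21 (Cr2) measured 714 and 151 FPKM in FO B (Aged) but 3.86 and 4.69 FPKM in ABCs. ABC library 3 stood apart from the other 2, with 210 of 10453 genes more than 2-fold below both of them and 73 above, whereas ABC libraries 1 and 2 had 16 to 23 below and 20 to 31 above. For genes whose difference from FO B (Aged) rests on that library, the value without it is given as well. The labels number the libraries without naming animals, so the errors measure the spread between these libraries. In RNA from a sorted bulk population, few cells with much RNA of a gene and many cells with little of it cannot be told apart.

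Adgre1 and Fgl2 were the 2 genes that stood highest in ABCs against FO B cells. Adgre1 encodes F4/80, the adhesion receptor used to identify mouse macrophages. It lies at chr17:57358691-57483527 on the plus strand (GRCm38, as are all gene positions here). Its level was 174, 222 and 199 FPKM in ABC libraries 1 to 3, from 4329, 6108 and 4996 reads. It was 2.67, 3.30 and 2.74 FPKM in FO B (Aged) and 1.44, 1.61 and 3.58 FPKM in FO B (Young). Every ABC library was thus at least 48.5 times the highest FO B library, and the FO B groups overlapped. The mean of 198 FPKM ± 24.1 (SD, n = 3) in ABCs was 68.3 times that of FO B (Aged), a log2 fold change of 5.67 ± 0.11 (SE) on the log2(FPKM + 1) scale. Without ABC library 3 it was 5.66. Within each ABC library Adgre1 ranked above 94.0% of the genes at 1 FPKM or more, against at most 16.4% in any FO B library.

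Fgl2 encodes fibrinogen-like protein 2, made as a membrane prothrombinase by macrophages and as a secreted immune regulator. The gene lies at chr5:21372642-21378374 on the plus strand. It measured 106, 92.6 and 132 FPKM in the ABC libraries, with 3090, 2992 and 3887 reads. In FO B (Aged) it measured 1.17, 1.87 and 1.48 FPKM, and in FO B (Young) 0.284, 0.160 and 0.445 FPKM. None of the groups overlapped, so the order of levels was ABCs, then aged FO B, then young FO B. The ABC mean of 110 FPKM ± 20.03 (SD, n = 3) was 72.9 times the FO B (Aged) mean, with a log2 fold change of 5.46 ± 0.16 (SE). It was 372 times the FO B (Young) mean, which rested on 28 reads in all.

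**Figure D1:**
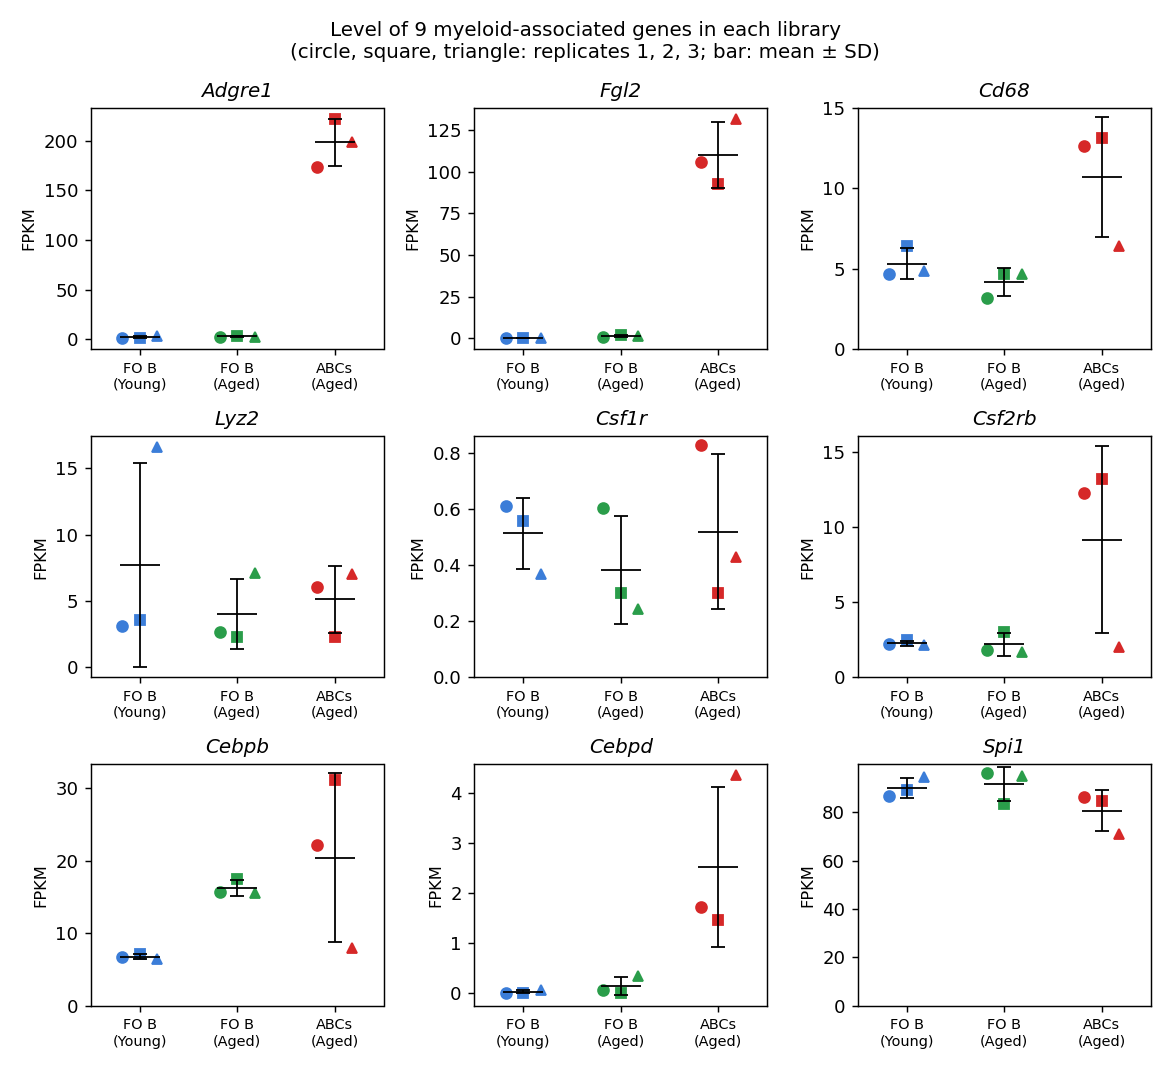
Level of each of the 9 genes in FPKM (vertical axis, from 0 on a linear scale of its own in each panel) in the 3 groups, with 1 symbol per library (circle, square and triangle for replicates 1, 2 and 3) and the mean ± SD. Adgre1 and Fgl2 stand at 174 to 222 and 92.6 to 132 FPKM in ABCs and under 4 FPKM in FO B cells, Cebpb rises between the FO B groups, and ABC library 3 (triangle) lies low for Cd68, Csf2rb and Cebpb and high for Cebpd.

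The lysosomal genes differed much less. Cd68, which encodes macrosialin, a glycoprotein of late endosomes and lysosomes that is abundant in macrophages, lies at chr11:69664213-69666153 on the minus strand. It measured 12.6, 13.1 and 6.38 FPKM in the ABC libraries and 3.15, 4.70 and 4.66 FPKM in FO B (Aged). It measured 4.67, 6.42 and 4.88 FPKM in FO B (Young). The ABC libraries lay above all FO B (Aged) libraries, but ABC library 3 overlapped FO B (Young). The log2 fold change against FO B (Aged) was 1.13 ± 0.27 (SE), and 1.44 without ABC library 3. Lyz2 encodes lysozyme M, an antibacterial enzyme of macrophages and granulocytes, and lies at chr10:117277331-117282321 on the minus strand. The ABC libraries measured 6.06, 2.22 and 7.02 FPKM. FO B (Aged) measured 2.62, 2.28 and 7.06 FPKM, and FO B (Young) 3.07, 3.50 and 16.6 FPKM. All 3 groups overlapped, and the highest value belonged to a young FO B library (124 reads). Lyz2, which macrophages make in quantity, was therefore not higher in ABCs beyond the spread, with a log2 fold change of 0.31 ± 0.45 (SE), 0.06 without ABC library 3 and 0.72 without FO B (Aged) library 3. Its near copy Lyz1 stayed at or under 0.695 FPKM, and 1.81% of the windows of 1 read length in Lyz2 transcripts also occur in Lyz1.

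The receptor genes divided. Csf1r, the receptor for CSF-1 and IL-34 on which most macrophages depend, was near the limit of detection in each group. It measured 0.831, 0.301 and 0.429 FPKM in ABCs, from 25, 10 and 13 reads. In FO B (Aged) it measured 0.603, 0.303 and 0.245 FPKM, and in FO B (Young) 0.613, 0.558 and 0.370 FPKM. The groups overlapped, and with 8 to 25 reads in a library a modest difference was not detectable at this depth. An exon of Hmgxb3 on the opposite strand shares 873 bases with Csf1r, and reads of the 2 genes cannot be told apart there because the library kit does not mark strand. Csf2rb encodes the beta chain shared by the receptors for IL-3, IL-5 and GM-CSF, and lies at chr15:78325752-78353847 on the plus strand. It measured 12.3, 13.2 and 2.04 FPKM in the ABC libraries, from 460, 547 and 77 reads. FO B (Aged) measured 1.86, 3.06 and 1.68 FPKM, and FO B (Young) 2.22, 2.47 and 2.16 FPKM. ABC libraries 1 and 2 lay far above every FO B library and ABC library 3 lay among them, so the groups overlapped. The log2 fold change of 1.40 ± 0.57 (SE) against FO B (Aged) became 2.13 without ABC library 3. The near copy Csf2rb2, with which 4.56% of the windows of 1 read length are shared, stayed at or under 0.236 FPKM.

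Of the transcription factors, Cebpb was higher in aged than in young FO B cells, Cebpd was detected mainly in ABCs, and Spi1 hardly differed. Cebpb encodes C/EBPβ, a factor of macrophage activation and emergency granulopoiesis, and is a gene of 1 exon at chr2:167688915-167690418 on the plus strand. It measured 6.72, 7.14 and 6.50 FPKM in FO B (Young) and 15.7, 17.5 and 15.6 FPKM in FO B (Aged). In ABCs it measured 22.1, 31.1 and 7.96 FPKM, from 237, 368 and 86 reads. ABC libraries 1 and 2 were above all FO B libraries, and ABC library 3 was between the young and the aged FO B cells. The log2 fold change of ABCs against FO B (Aged) was 0.12 ± 0.42 (SE) with all libraries, 0.66 without ABC library 3 and -0.26 without ABC library 2, so its direction rests on single libraries. Against FO B (Young), where the groups did not overlap, the log2 fold change was 1.27 ± 0.42 (SE), and 1.81 without ABC library 3.

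Cebpd encodes C/EBPδ, an early inflammatory factor of macrophages, and lies at chr16:15887286-15891031 on the plus strand. It measured 1.72, 1.45 and 4.37 FPKM in ABCs, from 29, 27 and 74 reads. It measured 0.0600, 0 and 0.329 FPKM in FO B (Aged), which is 7 reads in all, and 1 read was found in the 3 FO B (Young) libraries together. No ABC library overlapped an FO B library, and ABC library 3, low for Cebpb, was the highest for Cebpd. Of the 7 reads in FO B (Aged), 6 came from library 3, so the ratio of means of 19.4 to FO B (Aged) rests on that library, and it was 12.2 without ABC library 3. Without that ABC library Cebpd also fell under the filter of a mean of 1 FPKM. With all libraries it had a log2 fold change of 1.56 ± 0.32 (SE) that the added 1 FPKM holds down. Spidr, on the opposite strand, shares 562 exonic bases with Cebpd and measured 6.71 to 9.48 FPKM in ABCs and 7.83 to 10.4 FPKM in FO B cells.

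Spi1 encodes PU.1, which both myeloid and B cells require, and lies at chr2:91082390-91115756 on the plus strand. It measured 86.4, 84.5 and 70.9 FPKM in ABCs and 96.1, 83.4 and 94.9 FPKM in FO B (Aged). In FO B (Young) it measured 86.5, 89.1 and 94.4 FPKM. The ABC and FO B (Aged) libraries overlapped, with a log2 fold change of -0.18 ± 0.10 (SE), and -0.09 without ABC library 3. The ABC libraries lay just under the FO B (Young) libraries, the nearest pair being 86.4 and 86.5 FPKM.

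Counted over the 9 genes, 4 had every ABC library above every FO B (Aged) library (Adgre1, Fgl2, Cd68 and Cebpd), none was below, and 5 overlapped. Among all 10412 genes tested, 26.3% lay wholly higher in ABCs and 26.3% wholly lower. Against FO B (Young), 4 lay wholly higher (Adgre1, Fgl2, Cebpb and Cebpd), 1 wholly lower (Spi1) and 4 overlapped, where 27.7% of 10438 genes lay higher and 27.6% lower. Both comparisons use the same ABC libraries. The 9 genes were chosen with these levels known, so nothing is read from their shares.

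**Figure D2:**
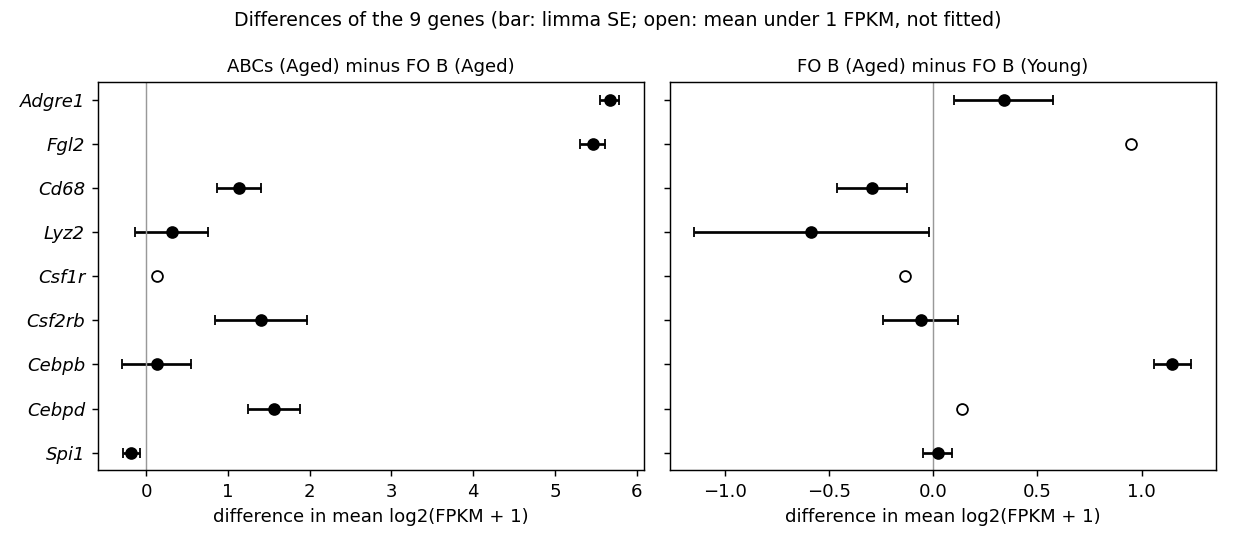
Difference in mean log2(FPKM + 1) of the 9 genes (horizontal axis) for ABCs (Aged) minus FO B (Aged) on the left and FO B (Aged) minus FO B (Young) on the right, with the limma SE and 3 libraries a group. Open symbols had a mean under 1 FPKM and were not fitted. On the left Adgre1 (5.67) and Fgl2 (5.46) lie far from the others, and on the right Cebpb (1.15) has the largest difference.

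The order of levels in FPKM differed between ABCs and FO B cells and, in part, between the FO B groups. FPKM is per length, but this alone does not make genes fully comparable, as Csf1r, Cebpb and Cebpd share exonic bases with other genes. In FO B (Young) and FO B (Aged) Spi1 was the highest of the 9, at means of 90.0 and 91.5 FPKM, and no other gene reached 20 FPKM in any library. Lyz2 followed in FO B (Young), at a mean of 7.73 FPKM, and overlapped Cebpb at 6.79 FPKM. In ABCs the order of means was Adgre1, Fgl2, Spi1, Cebpb, Cd68, Csf2rb, Lyz2, Cebpd and Csf1r. The libraries of Adgre1, Fgl2 and Spi1 did not overlap each other, whereas each neighbouring pair from Cebpb to Cebpd did. In FO B (Aged) Cebpb, at a mean of 16.3 FPKM, was second without overlap, and Cd68, Lyz2, Adgre1, Csf2rb and Fgl2 followed, each overlapping its neighbour.

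The FO B libraries were used to ask about age within 1 cell type. The genes were chosen with FO B levels in view and with earlier results of these data known. The tests of age, that of Cebpb included, are therefore not independent of this choice. Cebpb rose with age, from 6.79 FPKM ± 0.327 to 16.3 FPKM ± 1.07 (SD, n = 3 each), with 75 to 82 reads in the young and 167 to 226 in the aged libraries. This is a 2.40-fold difference and a log2 fold change of 1.15 ± 0.09 (SE, 95% interval 0.94 to 1.35), with an FDR of 0.002001 by limma over 10122 genes. An exact two-sided permutation test gave p = 0.1, the smallest that 3 against 3 libraries allow. Fitted together with the ABC libraries, whose spread in Cebpb is wide, the FDR was 0.344. Leaving out any 1 FO B library gave an FDR of 0.00717 to 0.0151. Tmem189, which shares 312 exonic bases with Cebpb on the opposite strand, measured 50.9 to 57.3 FPKM in FO B (Young) and 49.8 to 56.2 FPKM in FO B (Aged).

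Of the 9 genes, 6 passed the filter of a mean of 1 FPKM over the FO B libraries, and Cebpb was the 1 called, where 0.464% of all genes tested were called. Nothing is read from that comparison, because the genes were chosen with FO B levels in view. Fgl2 did not overlap either, with 5.10 times the young level in aged cells (1.51 FPKM ± 0.351 against 0.296 FPKM ± 0.143, SD, n = 3 each) and 147 reads against 28. It fell under the filter, and without the filter its log2 difference of 0.95 ± 0.14 (SE) had an FDR of 0.125 by limma. Among all genes tested, 9.64% had each aged FO B library above each young one. Adgre1 differed by 0.34 ± 0.24 (SE), with an FDR of 0.601 by limma, and by 0.62 with an FDR of 0.223 without FO B (Young) library 3. Cd68 differed by -0.29 ± 0.17 (SE, FDR 0.515 by limma), Csf2rb by -0.06 ± 0.18 (SE, FDR 0.925) and Lyz2 by -0.59 ± 0.56 (SE, FDR 0.725). Without FO B (Young) library 3 the difference of Lyz2 was 0.10 (FDR 0.943 by limma), so its sign rests on that library. For Spi1 the limma interval of the difference was -0.14 to 0.18 on the log2 scale, so an age difference beyond that range was not seen. Csf1r and Cebpd, at 8 to 20 and 0 to 6 reads in a library, were below the filter.

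Other genes of the myeloid program, none of them among the 9, were compared between ABCs and FO B (Aged) with limma. Their lists were also chosen with earlier results of these data known. Counts of list genes, here and below, are therefore a description, and nothing is read from their standing against the shares over all genes. Called at an FDR under 0.05 were 35.9% of the 10412 genes, 19.4% higher and 16.5% lower in ABCs, and the median log2 fold change of all genes was -0.01. Of 11 genes of myeloid signalling and paired receptors with a mean of 1 FPKM in both groups, 10 were higher and none lower, with a median of 1.91. Fcer1g, the common gamma chain through which Fc receptors signal, rose from a mean of 4.30 to 698 FPKM (log2 fold change 7.32 ± 0.69, SE). It measured 418, 458 and 1219 FPKM in the ABC libraries and 1.38, 1.14 and 10.4 FPKM in FO B (Aged). ABC library 3 was thus the highest for Fcer1g, and the mean was 438 FPKM without it, while the FO B (Aged) mean was 1.26 FPKM without library 3 of that group. The log2 fold change was 6.83 and 8.09 without these libraries, in that order. Lilrb4a, an inhibitory receptor, rose by 4.63, Cd300lf by 4.04, and Sirpa, the receptor for CD47, by 4.03. Tyrobp (DAP12) rose by 1.91 and the kinase Syk by 1.33, and the C-type lectin receptor Clec12a, which passed the filter through FO B (Aged) alone, fell by 2.49. Past a log2 fold change of 2.3 at an FDR under 0.01 were 4 of these genes higher (Fcer1g, Lilrb4a, Cd300lf and Sirpa), against 1.49% of all genes. Clec12a was past it as well, but through its filter it could only be lower, so it is not set against a share.

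Of 13 tested lysosomal genes of phagocytes, 11 were higher and none lower, with a median of 0.80. Grn (progranulin) rose by 2.57 on the log2 scale, Psap (prosaposin) by 1.57 and Ctsb (cathepsin B) by 1.44. Ctss, the cathepsin that trims the invariant chain in B cells, differed by -0.05 with an FDR of 0.591. Among 6 genes of the phagocyte NADPH oxidase, Cybb, the catalytic subunit, rose by 1.34, Cyba by 0.70 and Rac2 by 0.43. In these lists, the counts of genes higher were 10 of signalling and 11 of the lysosome under each alternative setting.

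**Figure D3:**
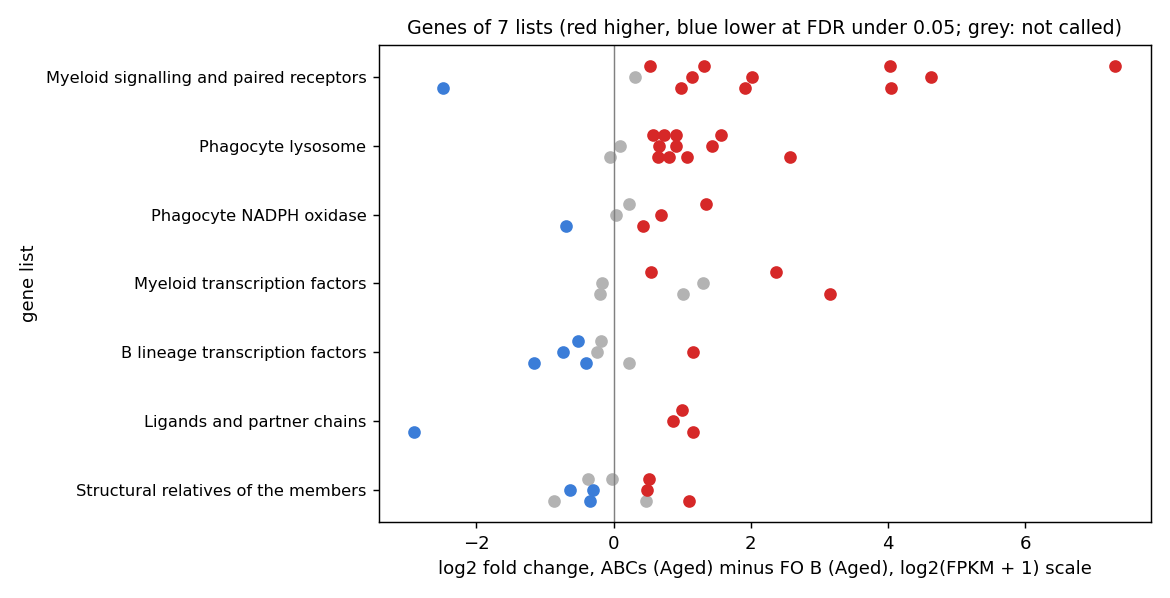
log2 fold change of ABCs (Aged) minus FO B (Aged) on the log2(FPKM + 1) scale (horizontal axis) for each tested gene of 7 gene lists (rows), with 1 point per gene, red where higher and blue where lower at an FDR under 0.05 by limma, and grey otherwise. The signalling and lysosomal lists lie mostly to the right of 0 (10 of 12 and 11 of 13 genes higher), while 4 of 8 B lineage transcription factors lie lower.

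Partners and relatives of the 9 genes were also read. The ligand Csf1 was higher in ABCs (4.34 against 1.35 FPKM, log2 fold change 1.15 ± 0.22, SE), whereas Il34 was listed at 0 in 8 libraries and at 0.0797 FPKM in ABC library 1. Of the alpha chains that pair with the Csf2rb product, Csf2ra of the GM-CSF receptor rose by 0.87 and Il3ra by 1.002, and Il5ra fell by 2.91, from 19.3 to 1.91 FPKM. Csf2ra lost its call without FO B (Aged) library 1 or 3 or ABC library 2 (FDR 0.0504 to 0.0604 by limma), and Il3ra without any 1 FO B (Aged) library or ABC library 1 (FDR 0.0536 to 0.0712). The relative of Adgre1 that was tested, Adgre5 (CD97), was high in both groups, with means of 289 FPKM (ABCs) and 136 FPKM (FO B (Aged)), a log2 fold change of 1.098 ± 0.14 (SE). Lamp1 and Lamp2, lysosomal membrane glycoproteins related to the Cd68 product, rose by 0.52 and 0.49, from means of 155 to 223 FPKM and of 42.2 to 59.6 FPKM. Cebpa and Cebpe, the C/EBP genes of granulocyte formation, were listed at 0 in all 9 libraries, as was Fgl1, the relative of Fgl2. Cebpg and Ddit3, more widely expressed C/EBP genes, fell by 0.64 and 0.29. Cebpz, which despite its symbol encodes a CCAAT-binding factor outside the C/EBP family, fell by 0.35. Cebpz lost its call without FO B (Aged) library 3 (FDR 0.0572 by limma), and Ddit3 without any 1 FO B (Aged) library or ABC library 1 or 3 (FDR 0.0595 to 0.118) and with the replicate number as a block (FDR 0.0727). Spib, the close relative of Spi1 in B cells, had means of 269 FPKM (ABCs) and 270 FPKM (FO B (Aged)).

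Of 5 myeloid transcription factors with a mean of 1 FPKM in both groups, 2 were higher and none lower. Id2, an inhibitor of E proteins, rose from 12.3 to 121 FPKM (log2 fold change 3.15 ± 0.21, SE), and Irf8, shared by B and myeloid cells, by 0.55. Batf3, a factor of dendritic cells, was listed at 0 in the 3 FO B (Aged) libraries and at 3.42, 1.99 and 9.46 FPKM in ABCs. Batf3 and Gfi1 (2.36 against 0.552 FPKM) passed the filter through ABCs alone and are left out of that count. Irf5 (-0.17, FDR 0.0523 by limma) was called lower with each of the 3 scalings, with all 9 libraries and without ABC library 3 (FDR 0.0173 to 0.0476). Klf4 (1.31, FDR 0.0603 by limma) was called higher with all 9 libraries, with the replicate block and without ABC library 1 (FDR 0.00654 to 0.0262). Of 8 transcription factors of the B lineage, Pax5, Ebf1, Bach2 and Foxo1 fell by 0.52, 0.74, 1.16 and 0.39, and Ikzf3 (Aiolos) rose by 1.16. Foxo1 lost its call without any 1 FO B (Aged) library (FDR 0.0643 to 0.0821 by limma). Pax5 still measured 20.3 FPKM and Ebf1 41.7 FPKM in ABCs. Within FO B cells, the lists gave 4 calls with age among 84 genes tested, where 0.464% of all genes tested were called. Id2 rose by 0.85 (FDR 0.0287 by limma) and Lilrb4a by 1.40 (FDR 0.00872), and Ly6c2 and Fcer2a fell by 1.15 and 0.46. Lilrb4a lost its call without FO B (Aged) library 1 (FDR 0.0523), Fcer2a without that library or FO B (Young) library 1 or 2 (FDR 0.0523 to 0.0637), and Id2 without any 1 library but FO B (Young) library 3 (FDR 0.067 to 0.127), all by limma.

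Markers of macrophages, which normally carry F4/80, were low beside Adgre1. Of 18 macrophage markers, Vsig4, Siglec1, Trem2 and Clec4f were listed at 0 in all 9 libraries and 10 of the 18 stayed under 1 FPKM in each. The complement genes C1qa, C1qb and C1qc reached at most 4.03 FPKM in an ABC library and 2.80 FPKM in an FO B library. Their summed level with the other markers was 31.8, 15.9 and 19.5 FPKM in ABC libraries 1 to 3, 4.78 to 8.10 FPKM in FO B (Aged) and 10.9 to 13.1 FPKM in FO B (Young). Hmox1 was higher in ABCs than in FO B (Aged), at a mean of 8.05 FPKM in ABCs, and was the 1 called of 2 markers that reached a mean of 1 FPKM in both groups. Axl and Ms4a7 (means of 4.98 and 2.995 FPKM in ABCs against 0.228 and 0.606 FPKM) passed the filter through ABCs alone, so that they had to be higher, and C1qc passed the same way without a call. Axl, at 11.2, 2.79 and 0.907 FPKM in ABC libraries 1 to 3, lost its call without any 1 FO B (Aged) library or ABC library 2 (FDR 0.0784 to 0.122 by limma), and likewise without a filter, with quantile scaling or without a variance trend (FDR 0.0602 to 0.0963). Among 11 monocyte markers, Ly6c2, which lymphocytes can also express, made up most of the summed 78.3 to 99.8 FPKM in ABCs, against sums of 25.0 to 29.4 FPKM in FO B (Aged) and 38.8 to 46.6 FPKM in FO B (Young). Ly6c2 itself was higher in ABCs than in FO B (Aged), at means of 74.2 and 11.5 FPKM (log2 fold change 2.58 ± 0.12, SE, FDR 1.91e-05 by limma). Cd14 did not exceed 0.310 FPKM in any library. The part of other cells in the levels of the 9 genes was not tested.

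Marker sums were also read beside the libraries that stood high for Lyz2. FO B (Young) library 3, with the highest Lyz2 level of 16.6 FPKM, had 12.0 FPKM for macrophage markers (13.1 and 10.9 FPKM in the other young libraries) and 2.64 FPKM for neutrophil markers (3.70 and 11.7 FPKM). Neither sum was thus the highest of its group, whereas the sum of monocyte markers, 46.6 FPKM, was (41.7 and 38.8 FPKM). FO B (Aged) library 3, with Lyz2 at 7.06 FPKM, had the highest sum of the 11 neutrophil markers, 28.3 FPKM, and S100a8 at 15.2 FPKM. Its macrophage sum, 8.10 FPKM, was also the highest of its group, and its monocyte sum, 28.1 FPKM, was not. ABC library 3, with Lyz2 at 7.02 FPKM, had the lowest neutrophil sum of the ABC libraries, 2.60 FPKM, and S100a8 at 0. The sum of 7 T cell markers was 5.20 to 38.5 FPKM in ABCs, most of it Cd3g, and at most 1.13 FPKM in FO B cells. Of 4 plasma cell markers with a mean of 1 FPKM in both groups, Sdc1 and Jchain were higher in ABCs, and of 2 such dendritic cell markers none was called at an FDR under 0.05. Of these 2, Bst2 (FDR 0.0591 by limma) was called lower with quantile, upper quartile and TPM scaling. The same held with all 9 libraries and without FO B (Aged) library 2 (FDR 0.00651 to 0.0478 over these settings). Prdm1 (4.46 against 0.378 FPKM), Itgae (4.45 against 0.233 FPKM) and Zbtb46 (3.17 against 0.853 FPKM) passed the filter through ABCs alone, and their being higher is a description. S100a9 was lower and passed through FO B (Aged) alone. The 1 tested NK cell marker, Klrd1, passed through ABCs alone and was not called (FDR 0.182 by limma) except without ABC library 3 (FDR 0.000686). Jchain, Sdc1 and S100a9 lost their calls without FO B (Aged) library 1 (FDR 0.067, 0.0521 and 0.0607 by limma). Jchain lost it also without ABC library 1 or 2, Sdc1 without FO B (Aged) library 3 and S100a9 without ABC library 1 (FDR 0.0516 to 0.0602). Their part in the results was not tested.

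**Figure D4:**
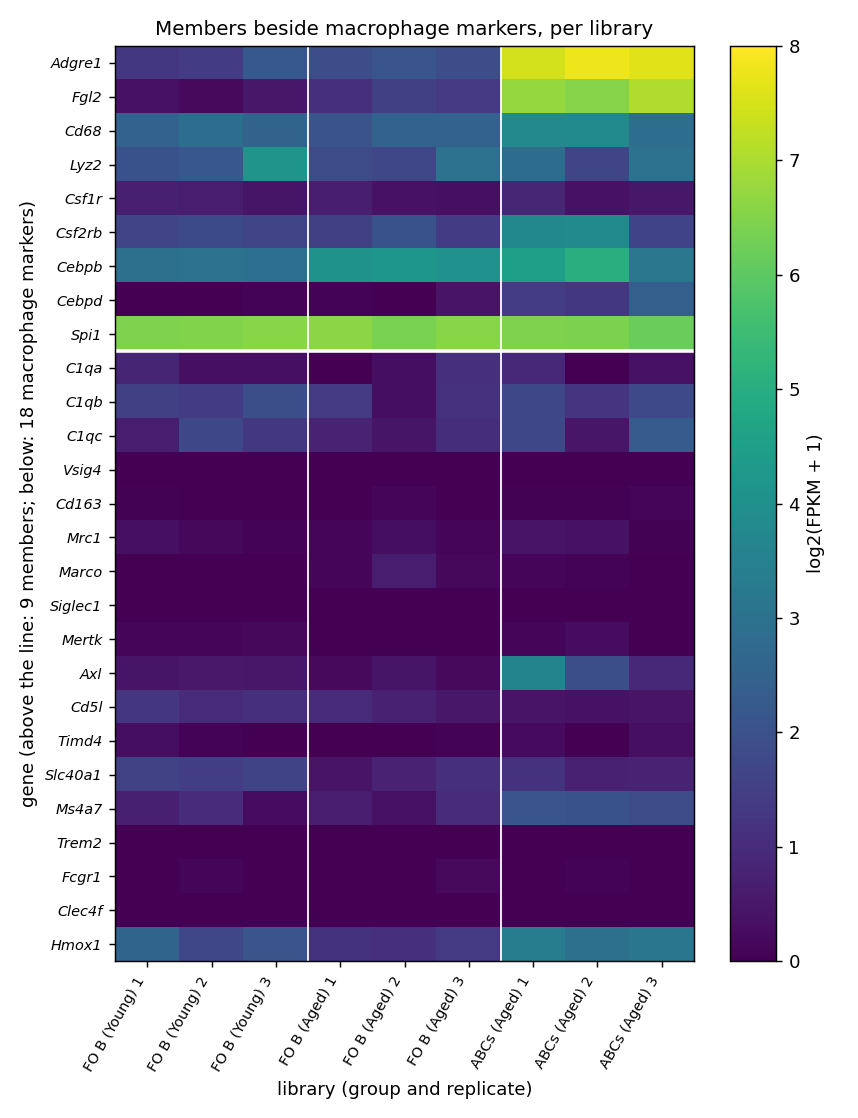
log2(FPKM + 1) (colour, 0 to 8) of the 9 genes (above the white line) and 18 macrophage markers (below it) in each of the 9 libraries (columns, 3 a group). Adgre1 and Fgl2 are bright in the ABC columns only, Spi1 is bright throughout, and Vsig4, Siglec1, Trem2 and Clec4f are at 0 in each library.

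For each of the 9 genes, the genes with the most similar profile over the 9 libraries were found by the root mean square (RMS) difference of log2(FPKM + 1), each gene centred on its own mean, among 10375 genes. The likeness is a description, and the libraries of a group share their cell type. The nearest to Adgre1 was Itgax (RMS 0.27), which encodes CD11c, used in the sort, then Nt5e (CD73) at 0.33 and Fgl2 at 0.35, against an RMS of 2.77 of Adgre1 around its own mean. Fgl2 was nearest to Adgre1, Nt5e and Zbtb32. Cebpb was nearest to Alox5ap (0.22), the activator of 5-lipoxygenase, Pltp (0.23), a phospholipid transfer protein, and Gbp7 (0.29). Alox5ap measured 2.45, 6.09 and 6.26 FPKM on average in FO B (Young), FO B (Aged) and ABCs, and Pltp 22.9, 46.5 and 71.5 FPKM. Cebpd was nearest to Txndc5 (0.14), Cd86 (0.15), the costimulatory ligand, and Camkmt (0.15). Csf2rb was nearest to Dse, Klra3 and Tsnaxip1 (0.21 to 0.29), and Cd68 to Tmem150a, Dcxr and Trim32 (0.16 to 0.22). For Lyz2 the nearest gene stood at 0.57 against an RMS of 0.77 of Lyz2 itself, so no close profile was found. Spi1, with an RMS of 0.13 around its own mean, was nearest to Spag7, Eef1a1 and Magoh (0.031 to 0.045). The RMS of 0.17 of Csf1r is held down by the added 1 FPKM at levels of 0.245 to 0.831 FPKM, so its nearest genes, Msl3, Kdm2b and Wdr92 (0.089 to 0.102), carry little information.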

How the data were processed

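RNA from sorted B cells was turned into cDNA (SMART-Seq HT Kit) and Nextera libraries, which do not mark strand, and was sequenced as 101-base single reads. The deposited values are FPKM per gene, 1 table per library, which the authors calculated with Cufflinks after mapping to mm10. The submitters' notes name TopHat2 2.1.1, Bowtie2 2.2.8, SAMtools 0.1.18 and Cuffdiff 2.2.1, while the methods give other versions of some of them. The gene annotation is not given in the sources used here. FPKM corrects for length and depth but not for the make-up of a library, so scalings were tried as alternatives.

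The 9 genes and the gene lists were chosen with earlier results of these data known. Of 172 list symbols, 168 had a row. Whole reads were recovered for 7 of the 9 genes from the steps of the FPKM values (tolerance 0.01 of a read), and approximate library totals from 1033 genes. Reads that map to several genes could be split by the authors' counting.

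limma 3.58.1 (R 4.3.3) was fitted to log2(FPKM + 1) with a variance trend, on the 2 groups compared, for genes whose mean reached 1 FPKM, and FDR is the Benjamini-Hochberg value over all genes tested. For the 9 genes the ABC comparisons give the log2 fold change and SE without a test. In data simulated for FO B (Aged) against FO B (Young), 44 of 50 genes raised by a log2 of 1 and 50 of 50 raised by 2 were called, with 6 of 9931 unchanged genes. Exact permutation tests used scipy 1.17.1. Named were all 9 genes, list genes that were called or among the 4 highest of their list, and the 3 nearest profiles of each gene. Cd14, Il34, Klrd1, S100a8, Trem2, Clec4f, Flt3, Klf4, Ncf4, Irf5 and Bst2 were named after their values were seen. So were some further genes, which stood at or near 0. Positions are from GENCODE M21 (GRCm38) and promoters from RefSeq (GRCm38.p6), used only for naming and sequence. The alternatives were a pseudocount of 0.1, no filter or a mean of 5 FPKM, quantile, upper quartile and TPM scaling, all 9 libraries in 1 fit, no variance trend, the replicate number as a block, and each library left out. Some genes of the lists and 1 marker of the sort are not reported here by name.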

Additional observations from a re-analysis of the deposited data

How the results depend on the processing

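In FO B (Aged) against FO B (Young), Cebpb kept its direction under all 15 alternatives (log2 fold change 1.097 to 1.25) and was called under 14 of them. The exception was the fit of all 9 libraries, with 1.15 and an FDR of 0.344 by limma, where 0 of the 9 genes were called. The log2 fold change of Cebpb was the same in that fit, whose error includes the ABC libraries. Its SE was 0.37 there, against 0.09 in the fit of the FO B libraries alone. The list genes called higher with age, 2 as reported, were 0 without a filter, 1 with a mean of 5 FPKM, 0 with all 9 libraries, 1 without a variance trend, and 0 to 2 when a library was left out. Those called lower, 2 as reported, were 1 without a filter, 1 with all 9 libraries, 1 without a variance trend, 3 with TPM scaling (Tyrobp as well, log2 fold change -0.37, FDR 0.0443 by limma), and 1 to 2 when a library was left out. In ABCs (Aged) against FO B (Aged), 46 of 91 list genes tested were higher and 13 lower, with 37 to 51 and 10 to 17 over the alternatives. Of the 77 with a mean of 1 FPKM in both groups, 39 were higher and 11 lower. Among all genes tested, 19.4% were higher and 16.5% lower. Of the list genes named, Ddit3 and Il3ra also lost their calls in ABCs without a filter, as did Ddit3 without a variance trend (FDR 0.0531 to 0.0555 by limma). With age, Id2, Fcer2a and Lilrb4a lost theirs without a filter and with all 9 libraries, and Id2 and Fcer2a without a variance trend (FDR 0.0612 to 0.827). No scaling moved the median of all genes by over 0.1. With a pseudocount of 0.1 the log2 fold changes of Adgre1, Fgl2 and Cebpd were 6.04, 6.10 and 3.62. Depth limited Csf1r and Cebpd in FO B cells, and intervals on so few reads would cover counting error only.

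The replicate numbers were not taken as pairs, because same-numbered ABC and FO B (Aged) libraries deviated together with r of 0.08, -0.02 and 0.11 across genes. With the replicate number as a block, 48 list genes were higher and 13 lower in ABCs. Klf4 and Ncf4 became higher (FDR 0.0172 and 0.0489 by limma), and Ddit3 lost its call (0.0727). Flt3 was also called lower (FDR 0.0169 by limma). It passed the filter through FO B (Aged) alone, so that it had to be lower, and its call is a description. With age Cebpb had an FDR of 0.00898 by limma, with 1 of the 9 genes and 2 and 2 list genes called. No call of the 9 genes changed under the block. Cebpd gave no fitted value in ABCs against FO B (Aged) without ABC library 3, where its mean fell under the filter.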
